A study of Mus musculus with 4 samples.

Results

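Platelet transcripts were followed in single-cell suspensions of whole mouse lung. Platelet barcodes were defined as droplet barcodes with at least 1 UMI (a counted RNA molecule) of at least 3 of 6 platelet genes, Pf4, Ppbp, Gp9, Itga2b, Gp1bb and Nrgn, with a summed count of at most 2 for the endothelial genes Cdh5, Cldn5, Egfl7, Ramp2 and Calcrl, and with no UMI of the lymphocyte genes Cd3e and Cd79a. The barcodes were thus selected on their own counts of these 13 genes. This rule found 305 of 9363 barcodes. The 4 libraries came from 4 mice, 2 WT (ERG fl/fl) and 2 ERG CKO (CDH5-CreER(T):ERG fl/fl), in which the tamoxifen-activated Cre is driven by the promoter of the endothelial gene Cdh5. Mice of both groups carried the floxed Erg alleles and received 5 daily injections of 0.5 mg tamoxifen, and lungs were taken 90 days later. The strain was C57/BL6, and ages are not given in the labels.

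Platelets are small fragments without a nucleus that megakaryocytes, large polyploid cells of the bone marrow and also of the lung, shed into blood. They carry RNA made in the megakaryocyte, bind exposed collagen and von Willebrand factor through surface glycoproteins, and release stored granules once activated. The transcription factors GATA1, FLI1 and NFE2 act in megakaryocytes, and ERG, the factor targeted in these mice, belongs with FLI1 to the ETS family.

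As examples of upstream sequence with motif matches, stretches of 120 bases are given below for 4 surface receptor genes that were counted together in these barcodes. They come from the 250 bases before the RefSeq start site (GRCm38.p6) and were placed to include the matches. The 4 genes were picked among those with a match, so they do not stand for all platelet genes looked up. Gp1ba lies at chr11:70639002-70639121 on the plus strand, Gp5 at chr16:30310790-30310909 on the minus strand, Gp9 at chr6:87777950-87778069 on the plus strand and Itga2b at chr11:102469905-102470024 on the minus strand. Sequences run 5′ to 3′ in the gene's direction, and capitals mark matches on either strand to the GATA spellings AGATAA or TGATAA and to the ETS spelling AGGAAG.
Gp1ba: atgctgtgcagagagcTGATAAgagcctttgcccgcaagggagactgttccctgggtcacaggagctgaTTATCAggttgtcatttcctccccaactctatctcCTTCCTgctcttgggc
Gp5: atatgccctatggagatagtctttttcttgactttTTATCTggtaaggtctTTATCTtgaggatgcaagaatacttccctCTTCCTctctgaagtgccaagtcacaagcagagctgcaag
Gp9: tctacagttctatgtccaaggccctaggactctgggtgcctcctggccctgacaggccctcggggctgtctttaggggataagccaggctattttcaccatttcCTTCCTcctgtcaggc
Itga2b: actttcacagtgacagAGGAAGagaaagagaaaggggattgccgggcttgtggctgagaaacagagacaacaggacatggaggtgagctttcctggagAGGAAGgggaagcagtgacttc
The Gp1ba stretch holds 2 matches to TGATAA and 1 to AGGAAG, the Gp5 stretch 2 to AGATAA and 1 to AGGAAG, the Gp9 stretch 1 to AGGAAG and the Itga2b stretch 2 to AGGAAG. Over 32851 RefSeq windows of 250 bases, 16.6% held either GATA spelling, 29.5% the ETS spelling and 4.72% both. The windows of Ppbp, Gp1bb, Nrgn, Treml1, Alox12 and Myl9 held none of the 3 spellings. A match describes letters in the window and not binding.

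Across the series, libraries held between 1852 and 3097 barcodes with a median of 4611 to 4899 UMIs, and no deposited barcode had fewer than 500 UMIs. In all, 14 cells carried 1 of 7 barcodes found in more than 1 library, and none of them was a platelet barcode. Scrublet called 60 doublets, with 0 among platelet barcodes. Erg, the targeted gene, was counted in endothelial barcodes without platelet genes at 84.6 and 76.7 CPM (counts scaled to a total of 1000000 UMIs) in WT, against 99.3 and 86.0 in the ERG CKO mice. Whether the counted transcript end lies in the floxed part is not given in the sources used here, so Erg counts did not check the labels.

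The rule used measured values, and its thresholds are given here as a description. At least 3 of the 6 genes were found in 787 barcodes, of which 443 had an endothelial sum of 4 or more, 18 had a sum of 3 and 21 with a lower sum held Cd3e or Cd79a. Among the 305 platelet barcodes, 130 held all 6 genes, 57 held 5, 57 held 4 and 61 held exactly 3. Just inside the limit, barcodes with exactly 3 genes had a median of 6 platelet-gene UMIs, or 0.103% of their total. Just outside it, 110 barcodes with exactly 2 genes had a median of 3 platelet-gene UMIs, or 0.0498%.

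Platelet barcodes formed 2 depth ranges, which the plot of depth against platelet-gene share shows. A limit of 3000 UMIs, set after seeing the data, left 208 low-UMI and 97 high-UMI platelet barcodes, with 21 of the 305 lying between 2000 and 4000. Low-UMI platelet barcodes had a median of 898 UMIs and 478 genes, and the 6 genes made up a median of 3.57% of their UMIs. High-UMI platelet barcodes had a median of 11484 UMIs and 2891 genes, with a median platelet-gene share of 0.103%. Although they were fewer, the high-UMI barcodes held 84.7% of all UMIs of the platelet barcodes, so sums over all 305 barcodes mainly describe them.

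**Figure D1:**
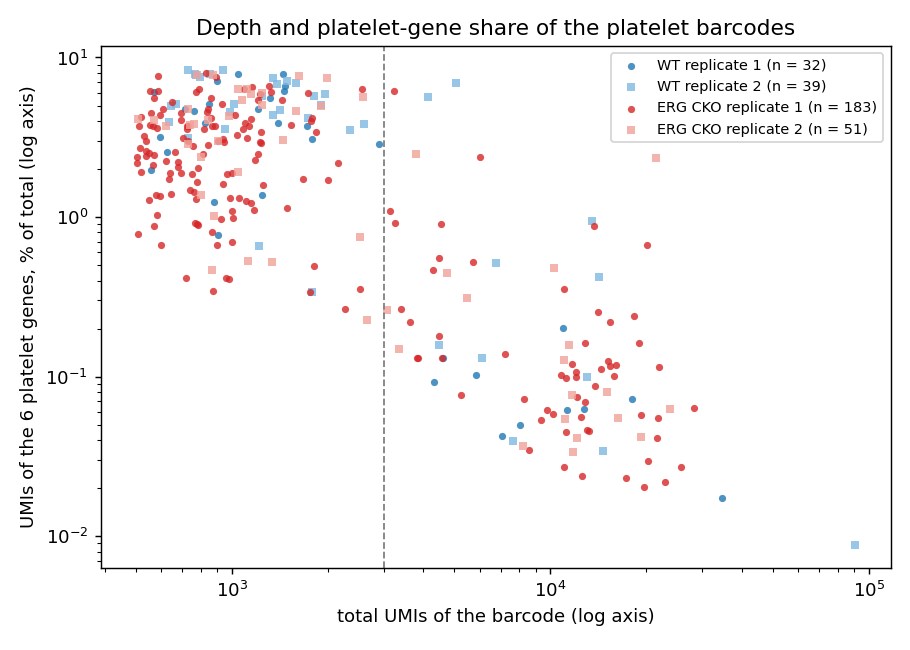
Each point is 1 platelet barcode, with its total UMIs on a log x axis and the percent of UMIs from the 6 platelet genes on a log y axis, coloured by library. The dashed line marks 3000 UMIs, with a median share of 3.57% to its left and 0.103% to its right.

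Markers of other lineages separated these ranges. With at least 3 markers asked for, 52 of 97 high-UMI platelet barcodes carried the monocyte and macrophage list (Lyz2, Csf1r, Cd68 and others), 7 the neutrophil list and 23 no list. The monocyte and macrophage barcodes numbered 3 and 5 in WT, against 31 and 13 in the ERG CKO mice. Of the 208 low-UMI platelet barcodes, 137 met no other list, 42 met the endothelial list, 20 the epithelial list and 3 the monocyte and macrophage list. Most low-UMI platelet barcodes thus met no other list, while most high-UMI barcodes carried markers of leukocytes beside a few platelet-gene UMIs. Platelet genes chose the barcodes of both ranges, so they do not test the platelet label.

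The nuclear RNA Malat1, which fragments without a nucleus should hold little of, differed in the same way. It stood at 6324 CPM over the low-UMI platelet barcodes, 17135 over the high-UMI ones and 27737 over barcodes with no UMI of the 6 genes. Of the low-UMI platelet barcodes, 82 (39.4%) had no Malat1 UMI. By library, Malat1 stood at 159 in WT replicate 1, 2100 in WT replicate 2, 8656 in ERG CKO replicate 1 and 7105 in ERG CKO replicate 2. Both ERG CKO libraries thus lay above both WT libraries, with a log2 fold change of 2.89 (SE 0.65, edgeR quasi-likelihood test with Benjamini-Hochberg adjusted p = 0.0743), which did not pass 0.05. Neat1, another nuclear RNA, stood at 119, 952, 778 and 818 in the same order, and its groups overlapped.

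A few high-UMI barcodes were rich in platelet RNA. In 7 of the 97, the 6 genes made up at least 1% of UMIs, and 4 of these had no Malat1 UMI. The highest share was 6.96%, in a WT replicate 2 barcode of 5069 UMIs with 11 UMIs of Tubb1, the platelet β-tubulin, 8 of Vwf and 0 of Malat1. Another, in ERG CKO replicate 2, held 21525 UMIs, 503 of them from the 6 genes, together with 84 Malat1 UMIs and the monocyte and macrophage markers. Gata1 was counted in 1 of the 7, with 2 UMIs. At least 2 UMIs of proliferation markers were found in 5 platelet barcodes, all in ERG CKO replicate 1, whose median platelet-gene share was 0.0638%.

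The genes of the rule are given as levels only, in CPM over the low-UMI platelet barcodes of WT replicate 1, WT replicate 2, ERG CKO replicate 1 and ERG CKO replicate 2, the order used for all sets of 4 values below. Pf4, the chemokine platelet factor 4, stood at 13659, 14843, 10112 and 11500. Ppbp, the precursor of another granule chemokine, stood at 8974, 12014, 5923 and 9353. Itga2b, the αIIb chain of the fibrinogen receptor, stood at 4646, 5405, 2369 and 3884. In each of these genes ERG CKO replicate 1 was the lowest library. Gp9 (2263, 3949, 1929 and 2786) and Gp1bb (2502, 3865, 1802 and 2581), both subunits of the von Willebrand factor receptor, and Nrgn, a calmodulin-binding protein (11436, 11090, 7463 and 9328), also had their lowest value there.

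Platelet genes that the rule did not use were abundant in the same barcodes, though no test was made because they accompany the genes that chose the barcodes. Of 22 receptor and adhesion genes, 16 were higher in all 4 libraries than in that library's barcodes without UMIs of the 6 genes. Clec1b, which encodes the podoplanin receptor CLEC-2, stood at 6353, 5573, 2885 and 3476 CPM, against 19.6 over barcodes without the 6 genes. Treml1, a granule membrane receptor, stood at 2065, 2072, 1235 and 1636, against 0.207. Both ERG CKO libraries lay below both WT libraries in these genes. Gp5, of the same receptor complex as Gp9, stood at 1350, 1512, 719 and 1022 (0.576 elsewhere), and Gp6, the collagen receptor, at 596, 616, 330 and 486 (0.0230). Cd9, a tetraspanin of many cell types, stood at 11873, 13051, 8445 and 11372, against 1335. The thromboxane receptor gene Tbxa2r had no UMI in any library.

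Granule cargo genes were higher in all 4 libraries in 11 of 16 cases. Thbs1, the adhesive protein thrombospondin-1, stood at 1946, 2296, 1565 and 4089 CPM, and its highest library was ERG CKO replicate 2. Srgn, the proteoglycan that packs granule contents, stood at 3772, 4789, 2437 and 3961 (1123 elsewhere), and Clu at 1787, 2240, 1430 and 2198 (100). Vwf, which endothelial cells also make, stood at 516, 644, 389 and 613 (126). Egf had no UMI in any library.

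Of 20 measured signalling genes, 14 were higher in all 4 libraries. Gng11, a G protein subunit, stood at 8061, 9270, 6448 and 7411 CPM (128 elsewhere), and Rgs18, which limits G protein signalling, at 1429, 1232, 575 and 818 (7.26). Alox12, the platelet 12-lipoxygenase, stood at 2740, 3249, 1548 and 2198 (1.04), and Fermt3, which activates integrins, at 2819, 2717, 1464 and 2402 (75.9). All 17 cytoskeleton genes were higher in all 4 libraries. Tmsb4x, the actin-binding thymosin β4, stood at 79217, 86342, 61635 and 73907 (11941), and the myosin light chain Myl9 at 2780, 3501, 1912 and 2837 (4.77).

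**Figure D2:**
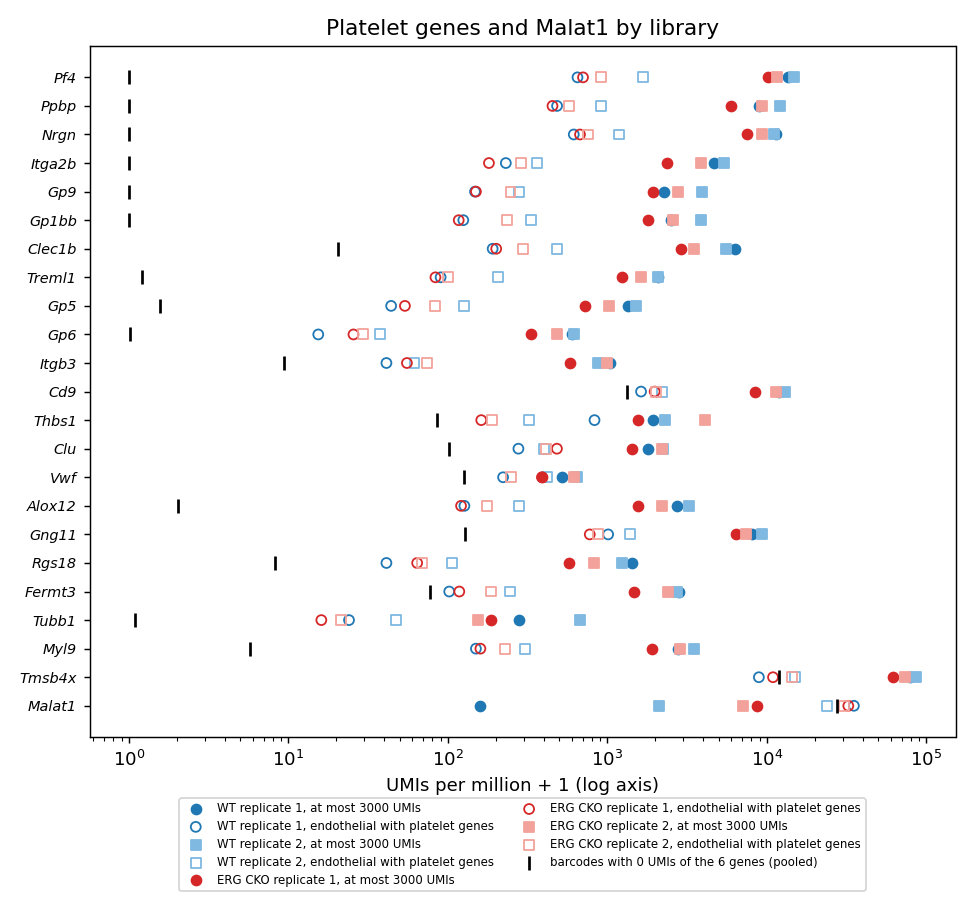
Levels in CPM plus 1 on a log x axis, with genes on the y axis. Filled symbols are low-UMI platelet barcodes of each library, open symbols are endothelial barcodes with platelet genes, and bars are barcodes without UMIs of the 6 genes. In Pf4 the filled symbols lie between 10112 and 14843, while Malat1 lies between 159 and 8656.

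Transcription factor and proliferation genes were sparse. Of 14 megakaryocyte transcription factors, 4 were higher in all 4 libraries, namely Nfe2, Fli1, Tal1 and Erg. Nfe2, which drives platelet release, stood at 596, 252, 84.6 and 204 CPM, and Fli1 at 318, 308, 237 and 230. Gata1 had 4, 0, 3 and 0 UMIs in the low-UMI platelet barcodes. Of 6 proliferation genes none was higher in all 4 libraries, and Ccna2, Cdk1 and Ccnb1 had no UMI. Summed, the proliferation genes stood at 0, 28.0, 25.4 and 25.6 CPM, against 132, 99.8, 97.7 and 97.2 in barcodes without UMIs of the 6 platelet genes. Both lists gave few UMIs, and the reason for the low levels was not tested.

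Erg itself was counted in the low-UMI platelet barcodes with 3, 3, 4 and 1 UMIs, which amounts to 119, 84.0, 33.8 and 25.6 CPM. The ratio of ERG CKO to WT over pooled counts was 0.323, with an exact 95% interval of 0.0779 to 1.27 that covers counting error only. A difference was not detectable at this depth. UMIs of Erg were present in 5.29% of low-UMI platelet barcodes and, after thinning each barcode to 500 UMIs, in 2.40%.

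Genes outside the lists were ranked by level against the barcodes without the 6 genes, and those named here were chosen after their values were seen. Ctla2a, a cysteine protease inhibitor, stood at 21522, 20080, 18396 and 17889 CPM (834 elsewhere). Tsc22d1 stood at 8577, 8906, 4874 and 7999 (135), and Ywhah at 7187, 6805, 4459 and 5571 (190). The serotonin transporter gene Slc6a4, through which platelets take up serotonin, stood at 993, 644, 440 and 690 (15.1). Histone transcripts were among the leading genes too, with Hist1h2bc at 3097, 3725, 2691 and 3322 (97.6).

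Thinning to 500 UMIs put the detection of these genes on 1 depth. Pf4 was then found in 90.9% of low-UMI platelet barcodes and 0.847% of T cells, which should lack it, and Clec1b in 67.3% and 0.261%. Without thinning, Clec1b was found in 86.4%, 96.4%, 72.8% and 72.7% of low-UMI platelet barcodes. Malat1 was found after thinning in 46.2% of low-UMI platelet barcodes and in 99.3% of T cells.

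Other signals in the low-UMI platelet barcodes were uneven between libraries. Hba-a1, an α-globin gene of red cells with a near-identical copy, stood at 5519, 1036, 1582 and 1150 CPM, and 3 platelet barcodes held over 20 haemoglobin UMIs. The 5 neutrophil markers summed to 0, 0, 76.2 and 7718, and S100a8 alone stood at 3322 in ERG CKO replicate 2. The 5 epithelial markers summed to 953, 1036, 3842 and 3527, with Epcam at 0 in all 4 libraries. The 7 monocyte and macrophage markers summed to 4249, 3473, 3266 and 4191, mainly from Lyz2.

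The share of platelet barcodes was compared between ERG CKO and WT over libraries. Platelet barcodes numbered 32 of 2264 (1.41%) in WT replicate 1, 39 of 2150 (1.81%) in WT replicate 2, 183 of 3097 (5.91%) in ERG CKO replicate 1 and 51 of 1852 (2.75%) in ERG CKO replicate 2. The 95% Wilson intervals ran from 1% to 1.99%, 1.33% to 2.47%, 5.13% to 6.80% and 2.1% to 3.6%. Both ERG CKO libraries lay above both WT libraries, at 4.33% ± 2.23 against 1.61% ± 0.283 (SD, n = 2 each). The difference of 2.72 points had an exact two-sided permutation p = 0.333, the smallest that 2 against 2 libraries can give. Leaving out ERG CKO replicate 1 gave 1.14 points, and leaving out its replicate 2 gave 4.30. Without barcodes of 2 or more UMIs of other-lineage markers, which 292 of the 305 held, 13 were left and the shares were 0.177% and 0.140% for WT against 0.161% and 0.0540% for ERG CKO, a difference of -0.0504 points.

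The difference narrowed in barcodes with the fullest platelet signature. Low-UMI platelet barcodes made up 0.972% and 1.30% of the WT libraries, against 4.04% and 1.78% in ERG CKO. Those with all 6 genes made up 0.707% and 1.21% of the WT libraries, against 1.61% and 1.03% in ERG CKO. In this last set the groups overlapped, with a difference of 0.362 points (exact two-sided permutation p = 0.667). High-UMI platelet barcodes made up 0.442% and 0.512% against 1.87% and 0.972%.

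**Figure D3:**
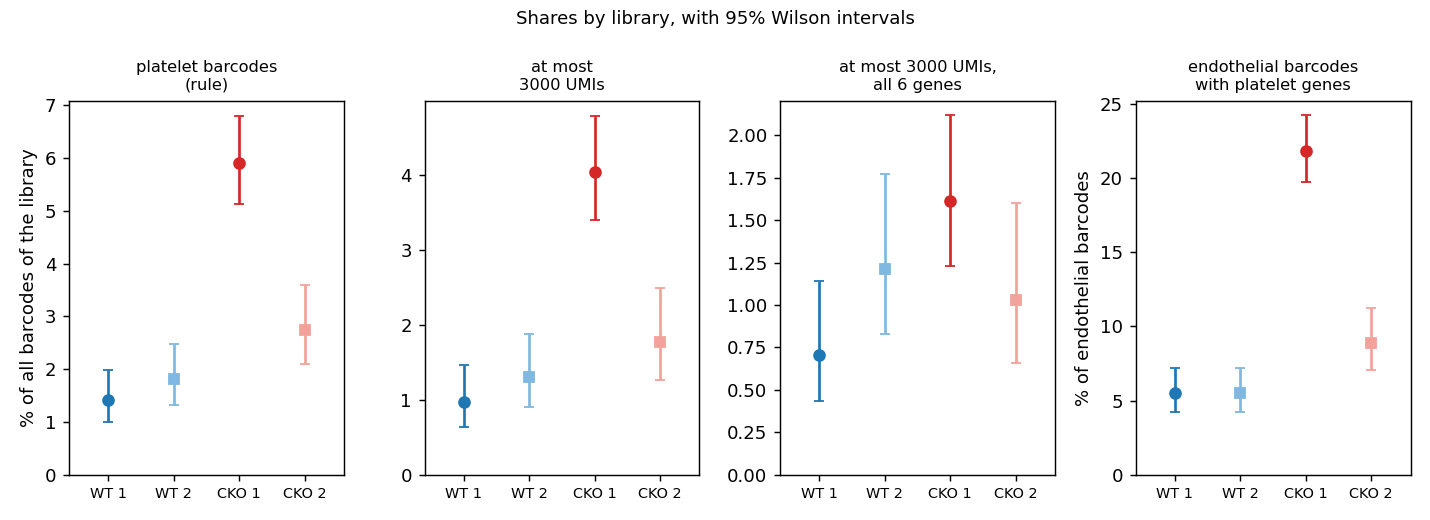
Shares by library with 95% Wilson intervals, which cover counting error only. The first 3 panels give the percent of all barcodes of a library, and the last gives the percent of endothelial barcodes that held at least 3 platelet genes. ERG CKO replicate 1 is highest in all 4 panels, at 5.91% in the first and 21.8% in the last, and the groups overlap in the third.

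The platelet-gene content of the low-UMI platelet barcodes is given by library as a description, since the same genes chose the barcodes. All 6 genes were found in 72.7% and 92.9% of them in WT, but in 40.0% and 57.6% in the ERG CKO mice. The 6 genes made up a median of 4.24% and 5.10% of UMIs in WT, against 2.72% and 4.04% in the ERG CKO mice, and barcodes without Malat1 made up 81.8% and 71.4% against 23.2% and 45.5%. ERG CKO replicate 1 lay farthest from WT in each of these values. In the low-UMI platelet barcodes with all 6 genes, Malat1 stood at 104 and 183 CPM in WT, against 2625 and 767 in the ERG CKO mice, and the groups did not overlap.

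Gene expression between the groups was tested on counts summed per library. Over all 305 platelet barcodes edgeR's quasi-likelihood test called 0 of 3577 genes, or 0%, at 0.05 after Benjamini-Hochberg adjustment, with 381 genes at an unadjusted p under 0.05, while DESeq2 called 31. No gene of the platelet lists was called by edgeR. The neutrophil genes S100a9 and Retnlg had log2 fold changes of 9.76 (SE 0.98) and 7.41 (SE 0.67), each with an edgeR adjusted p = 0.158. Leaving out WT replicate 1 raised the count to 756 and leaving out WT replicate 2 to 207, whereas leaving out ERG CKO replicate 1 gave 2 and leaving out its replicate 2 gave 0.

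In the low-UMI platelet barcodes edgeR called 7 of 538 genes (1.30%), all higher in ERG CKO, and none of the 7 belongs to a platelet list. The filter on low counts asks for a minimum level in as many libraries as a group holds. All 7 genes met it through their ERG CKO levels, so their shared direction is a description and not separate support. Mgp, a matrix protein that inhibits calcification, had 9 and 5 UMIs in WT, against 579 and 106 in the ERG CKO mice, or 357, 140, 4899 and 2709 CPM. Its log2 fold change was 4.21 (SE 0.50, edgeR adjusted p = 0.00176). Apoe, a lipid carrier of macrophages, stood at 79.4, 56.0, 1100 and 1354, with a log2 fold change of 4.33 (SE 0.52, edgeR adjusted p = 0.00176). Single barcodes held much of these counts, with 27 of 53 Apoe UMIs and 44 of 106 Mgp UMIs of ERG CKO replicate 2 in 1 barcode each. Apoe was found in 9.09%, 7.14%, 31.2% and 24.2% of the low-UMI platelet barcodes and Mgp in 22.7%, 14.3%, 48.0% and 36.4% of them, so in every library each gene had no UMI in most of these barcodes.

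Cd74, H2-Eb1 and H2-Aa, which act in MHC class II antigen presentation, were among the called genes. H2-Ab1, also of MHC class II, was tested and not called. It stood at 0, 224, 711 and 486 CPM (log2 fold change 2.43, SE 0.70, edgeR adjusted p = 0.198). Cd74, the invariant chain of MHC class II, stood at 79.4, 196, 1904 and 1636 CPM (log2 fold change 3.77, SE 0.48, edgeR adjusted p = 0.00202). The MHC class II genes H2-Eb1 (119, 28.0, 795 and 818) and H2-Aa (79.4, 84.0, 685 and 409) had log2 fold changes of 3.73 (SE 0.58) and 2.96 (SE 0.58), with edgeR adjusted p of 0.00821 and 0.0328. Class II proteins are known from B cells, macrophages and dendritic cells. Beside Cd79a, which the rule set to 0, the B-cell markers Cd79b, Ms4a1, Ighm and Ighd summed to 0, 0, 59.2 and 0 CPM. The 7 monocyte and macrophage markers summed to 4249, 3473, 3266 and 4191, with Csf1r at 0, 0, 50.8 and 102 and Ear2 at 39.7, 56.0, 0 and 0. The part of these cells in the calls was not tested.

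The other called genes rested on the fewest counts. Coro1a, an actin regulator of leukocytes, had 0 and 1 UMIs in WT, against 33 and 14 in the ERG CKO mice, a pooled ratio of 18.2 with an exact 95% interval of 3.11 to 734. Npnt, an integrin ligand of the alveolar matrix, had 1 and 1 UMIs in WT, against 38 and 13 in the ERG CKO mice, a pooled ratio of 9.87 (exact 95% interval 2.60 to 83.7). Both had an edgeR adjusted p = 0.0328. For comparison the pooled ratio of Mgp was 18.9, with an interval of 11.2 to 34.8. These intervals pool the UMIs of both mice of a group and cover counting error only.

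In barcodes of at most 3000 UMIs without platelet genes, the same genes showed smaller differences. There Cd74 stood at 1727, 1877, 2121 and 2556 CPM, and Apoe at 454, 334, 779 and 282. Mgp stood at 962, 558, 3070 and 832, so its groups overlapped, and Npnt was higher in WT, at 165, 108, 101 and 50.2. The level of Cd74 in low-UMI platelet barcodes of ERG CKO (1904 and 1636) thus lay below that of other shallow barcodes of the same libraries, and in WT it lay farther below. In both ERG CKO libraries Apoe, Mgp, Npnt, H2-Eb1 and Coro1a lay above those barcodes, and H2-Aa did so in ERG CKO replicate 1 only. In the low-UMI platelet barcodes Malat1 and the sum of the epithelial markers were also higher in both ERG CKO libraries. Their part in the 7 calls was not tested.

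With all 6 platelet genes asked for, edgeR called 0 of 432 genes, with 15 at an unadjusted p under 0.05. The direction of Cd74 (log2 fold change 3.39, edgeR adjusted p = 0.0894) and Apoe (3.86, adjusted p = 0.0992) was kept, and in this smaller set neither passed. The calls of Apoe, Mgp, Cd74 and H2-Eb1 held in 9 of 10 alternatives and were lost with all 6 genes asked for. Npnt was lost without any 1 of the 4 libraries and under DESeq2 (adjusted p up to 0.927). Coro1a was lost under DESeq2 and when either replicate 1 was left out (adjusted p up to 0.699). H2-Aa was lost with all 6 genes asked for, without ERG CKO replicate 1, under DESeq2 and without the barcodes of over 20 haemoglobin UMIs (adjusted p up to 0.749).

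**Figure D4:**
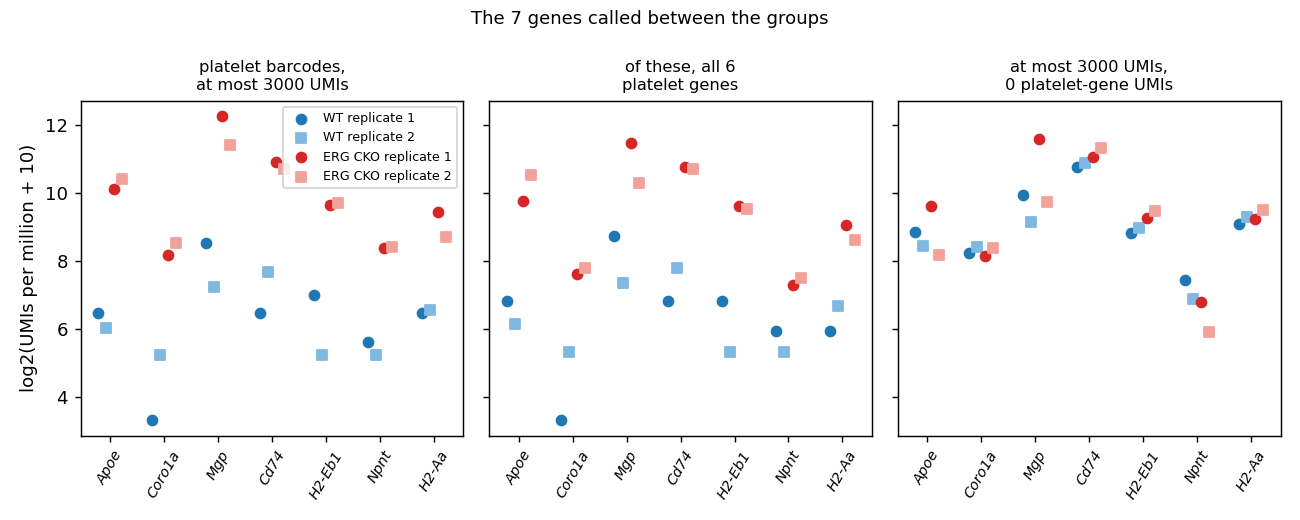
The 7 called genes in log2 of CPM plus 10, by library, in low-UMI platelet barcodes, in those with all 6 platelet genes and in equally shallow barcodes without platelet genes. In the first panel both ERG CKO libraries lie above both WT libraries in every gene, as for Cd74 at 1904 and 1636 against 79.4 and 196 CPM.

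Platelet genes leaned the other way without passing the test, as did the 6 genes of the rule. Because the listed genes accompany those that chose the barcodes, the counts below are a description and not separate support. In the low-UMI platelet barcodes 12 of 13 tested receptor genes had a negative log2 fold change (median -0.36), as had 12 of 13 signalling genes (median -0.46), 15 of 16 cytoskeleton genes (median -0.30) and 6 of 8 granule genes (median -0.19), beside a median of -0.02 over all 538 genes. Among listed genes found under their listed symbols, Clec1b came nearest, with a log2 fold change of -0.73 (SE 0.24, edgeR adjusted p = 0.272). Tubb1 followed (-1.30, SE 0.51, edgeR adjusted p = 0.351). With all 6 genes asked for, the medians were -0.02, -0.18, -0.09 and 0.12. Without WT replicate 2, the cytoskeleton median was 0.02 and the granule median 0.17, so the direction of these lists changed, while the receptor and signalling medians were both -0.30.

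Interferon-response genes were mostly too low to test. Ifi27l2a had 0 UMIs in both WT libraries and 34 and 10 UMIs in ERG CKO, or 288 and 256 CPM. The pooled ERG CKO level was 5.68 times a floor of 3 counts over the WT group (49.3 CPM). The exact 95% lower limit of the ratio of pooled counts was 4.43, which covers counting error only. Ifi27l2a was not among the genes edgeR tested in these barcodes. In endothelial barcodes without platelet genes the gene stood at 45.4, 29.2, 330 and 132 CPM, so it was higher in ERG CKO there too. Ifitm3 stood at 754, 448, 863 and 1176 in the low-UMI platelet barcodes (log2 fold change 0.95, SE 0.40, edgeR adjusted p = 0.359).

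Platelet genes were also found on endothelial barcodes, those with an endothelial sum of at least 4. At least 3 platelet genes were held by 50 of 909 (5.50%), 52 of 938 (5.54%), 277 of 1268 (21.8%) and 64 of 719 (8.90%) endothelial barcodes. The Wilson intervals ran from 4.2% to 7.18%, 4.25% to 7.20%, 19.7% to 24.2% and 7.03% to 11.2%. The ERG CKO libraries lay above the WT libraries, at 15.4% ± 9.15 against 5.52% ± 0.0305 (SD, n = 2 each), a difference of 9.85 points (exact two-sided permutation p = 0.333). Leaving out ERG CKO replicate 1 gave 3.38 points, and leaving out its replicate 2 gave 16.3. With every barcode thinned to 500 UMIs the shares were 0.710%, 0.771%, 2.12% and 1.01%. With only the platelet genes thinned and endothelial barcodes taken at their own depth, they were 0.990%, 1.39%, 3.63% and 1.39%, so ERG CKO replicate 2 was level with WT replicate 2.

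The 6 genes, which chose both sets, stood in similar proportions in these endothelial barcodes and in low-UMI platelet barcodes. High-UMI platelet barcodes were similar too, with Pf4 at 34.6%, Ppbp at 22.9%, Nrgn at 24.2% and Itga2b at 8.24%, so the likeness is not particular to endothelial barcodes. Of the UMIs of the 6 genes, Pf4 made up 31.5% and 31.6%, Ppbp 19.8% and 21.6% and Nrgn 27.7% and 24.2% in endothelial and low-UMI platelet barcodes. Itga2b made up 8.31% and 9.32%, Gp9 6.73% and 6.72% and Gp1bb 5.97% and 6.47%. Platelet genes outside the rule came along, with Treml1 at 89.1, 204, 82.6 and 99.5 CPM against no UMI in endothelial barcodes without the 6 genes, and Clec1b at 190, 481, 200 and 295 against 10.4 to 15.9. Malat1 stood at 35142, 23974, 32426 and 30584, so nuclear RNA was plentiful beside the platelet RNA. Their median depths were 5066, 4810, 6506 and 7683 UMIs, above the 3935, 3718, 3850 and 3949 of endothelial barcodes without platelet genes.

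The amount of platelet RNA per endothelial barcode overlapped between the groups. Median platelet-gene UMIs were 10 and 17.5 in WT, against 11 and 11.5 in the ERG CKO mice. Over all barcodes of a library, the 6 genes amounted to 166, 423, 661 and 436 CPM. Platelet barcodes held 48.2%, 47.6%, 39.5% and 47.7% of these UMIs, and endothelial barcodes with platelet genes held 32.1%, 34.6%, 46.4% and 38.9%. ERG CKO replicate 1 was the library in which the endothelial barcodes held the larger part.

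**Figure D5:**
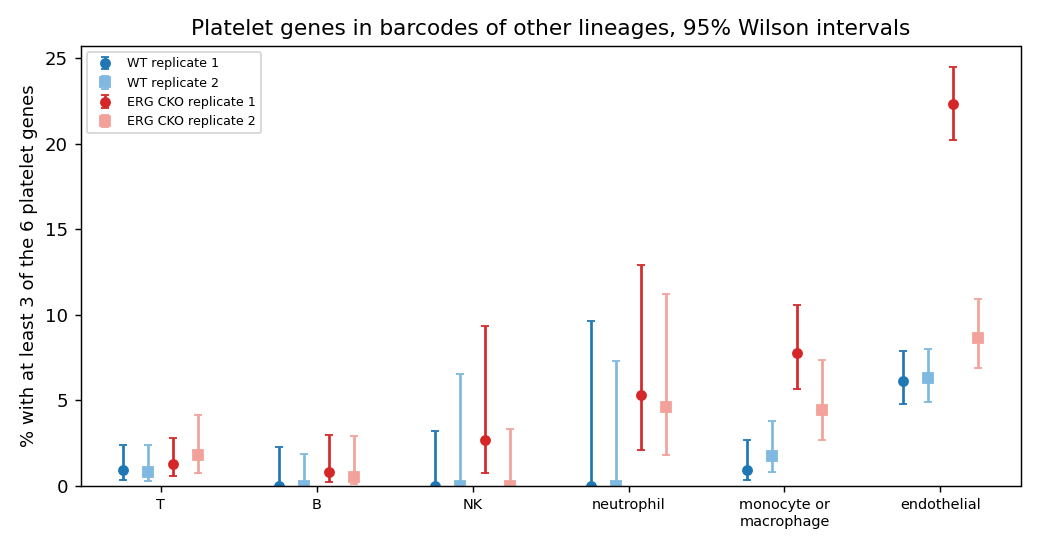
Percent of T, B, NK, neutrophil, monocyte and macrophage, and endothelial barcodes (by at least 3 markers) that held at least 3 platelet genes, by library. Bars are 95% Wilson intervals that cover counting error only. Endothelial barcodes reach 22.3% in ERG CKO replicate 1, monocytes and macrophages 7.78%, and T cells between 0.824% and 1.81%. Epithelial, mesenchymal and mast cell or basophil barcodes are not plotted. Among these, 20 of 50 epithelial barcodes (40.0%) of ERG CKO replicate 1 held platelet genes. In ERG CKO replicate 2, 4 of 11 mesenchymal barcodes (36.4%) did.

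Capillary subtypes of the endothelial barcodes with platelet genes were compared within each library. At least 2 markers of aerocytes, the large gas-exchange capillary cells (Ednrb, Car4, Fibin, Tbx2, Apln), were found in 26.0%, 25.0%, 30% and 34.4% of them, against 15.5%, 15.8%, 19.9% and 28.3% of endothelial barcodes without platelet genes. The difference was 8.96 points, higher in 4 of 4 libraries (exact paired permutation p = 0.125, the smallest 4 pairs can give). After thinning to 500 UMIs it turned to -2.52 points, lower in 4 of 4 libraries, so no direction held across depths. General capillary markers (Gpihbp1, Aplnr, Plvap, Kit, Cd93) were higher by 5.89 points in 3 of 4 libraries and after thinning differed by -7.68 points, lower in 4 of 4. Artery markers (Gja5, Bmx, Dkk2, Sox17, Hey1) were higher by 7.18 points in 4 of 4 libraries and after thinning by 0.134. Vein markers (Slc6a2, Vcam1, Nr2f2, Car8, Amigo2) were found in 10%, 17.3%, 24.9% and 20.3% against 8.23%, 6.86%, 13.8% and 9.19%, which differed by 8.61 points and after thinning by 0.899, higher in 3 of 4 libraries.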

How the data were processed

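The authors deposited 1 table of raw UMI counts for 20076 genes and 9363 barcodes, made with Cell Ranger 3.1.0 on mm10 per the processing notes; filter limits are not given in the sources used here, and the study states fewer cell profiles after its filter. Libraries were assigned by the start of each barcode name, the mouse being the replicate (2 per group). The platelet rule was applied to these counts, and CPM values were computed over summed barcodes. Sums per library were tested with edgeR 4.0.16 (TMM, filterByExpr, quasi-likelihood, Benjamini-Hochberg), with DESeq2 1.42.0 as an alternative, after a check on simulated data. Shares were compared by exact permutation over libraries, and thinning used 500 UMIs with seed 1. Doublets were only counted (scanpy 1.11.5, Scrublet), not removed. The members, lists and tests were chosen with earlier results of these data known. Named genes were the genes of the rule, some list members with high levels or at 0, and the called genes with both ERG CKO libraries on the same side. The list members named were not always those with the highest mean level. Of 19 genes looked up, 15 had a RefSeq upstream window. The series text names a lung dissociation kit where the methods describe Liberase with DNase.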

Additional observations from a re-analysis of the deposited data

How the results depend on the processing

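The share of platelet barcodes stayed higher in ERG CKO with at least 2 (3.30 points) or 4 platelet genes (2.16), an endothelial sum of 0 (1.38), thinning (1.89) or one replicate left out (1.14 to 4.30). Among barcodes of at most 3000 UMIs with all 6 genes, a limit set after seeing the data, it was 0.362, and it turned to -0.0504 once barcodes with 2 or more UMIs of other lineages were left out, which kept only 13. The share of endothelial barcodes with platelet genes kept its direction, at 3.38 to 16.3 points with one replicate left out and 0.823 after thinning, or 1.32 with endothelial barcodes taken at their own depth, where one ERG CKO library was level with one WT library. The aerocyte difference was 3.83 points with 3 markers asked for and -2.52 after thinning; the cause was not tested. Against 0 called genes over all platelet barcodes, 4 were called with at least 4 platelet genes, 13 after thinning, 7 in those of at most 3000 UMIs, 31 by DESeq2, 543 without a filter on low counts and 0 to 756 with one replicate left out. Against 7 called in the low-UMI platelet barcodes, 0 were called with all 6 genes, 21 without a filter, 18 with a replicate block and 12 to 23 with one replicate left out. The replicate block gave 0 calls over all platelet barcodes. Whether same-numbered libraries shared a batch is not given in the labels. Their deviations correlated at -0.06 over all platelet barcodes and 0.23 in the low-UMI ones, which cannot decide it. With 2 mice per group and 22 to 125 low-UMI platelet barcodes per library, small differences could not be detected, and p-values cover these 4 mice only.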

Other observations

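Platelet genes were also carried by leukocyte barcodes, which were assigned by at least 3 markers of a lineage, whatever their other counts. At least 3 of the 6 platelet genes were found in 3 of 323 (0.929%) and 6 of 343 (1.75%) monocyte and macrophage barcodes in WT, and in 35 of 450 (7.78%) and 14 of 314 (4.46%) in ERG CKO. In neutrophil barcodes they were found in 0 of 36 and 0 of 49 in WT (Wilson upper limits 9.64% and 7.27%), where 3 counts would be 8.33% and 6.12%. In ERG CKO they were found in 4 of 75 (5.33%) and 4 of 87 (4.60%) neutrophil barcodes. T-cell barcodes, whose median depths were 6016 to 6483 UMIs, held them in 0.935% and 0.824% in WT, against 1.29% and 1.81% in the ERG CKO mice, and B-cell barcodes in 0%, 0%, 0.823% and 0.526%. The lineage plot shows these shares beside the 6.14%, 6.28%, 22.3% and 8.66% of endothelial barcodes. Epithelial barcodes, not in that plot, numbered 31, 17, 50 and 7, and 3.23%, 11.8%, 40.0% and 14.3% of them held at least 3 platelet genes. Thinned to 500 UMIs, any UMI of the 6 genes was found in 1.24%, 3.5%, 10% and 5.73% of monocyte and macrophage barcodes and in 0.467%, 1.37%, 2.15% and 2.53% of T-cell barcodes. These shares were not tested between the groups.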
